A study of Drosophila melanogaster with 12 samples.

Results

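The control heads of the elav-GAL4 cross were compared with the control heads of the repo-GAL4 cross, 3 RNA-seq libraries against 3, out of 12 libraries in the series. The members were the 6 libraries whose labels pair AttP with the neuronal or the glial driver. Both groups were adult Drosophila melanogaster heads without any RNAi construct: ELAV-GAL4 crossed to the AttP stock BDSC 36304 (elav controls), and REPO-GAL4 crossed to the same stock (repo controls). The methods name this control strain attP40. In the deposited descriptions the flies of all groups were 3 to 5 days old, lived at 25°C with 12 hours of light, had no CO2 for 48 hours, and gave 5 to 10 heads per library. The methods instead give 10 heads of males aged 3 days. The other 6 libraries carry each driver with a PIG-A RNAi transgene (elav and repo knockdown heads, 3 each). They share no library with the controls and were used here only to ask whether a difference between the control heads is also present between the knockdown heads. The knockdown heads also differ in whether the RNAi is driven in neurons or in glia. A change of the driver contrast between control and knockdown heads therefore equals a difference between the glial and the neuronal knockdown effects.

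GAL4 is a yeast transcription factor placed under a tissue-specific enhancer. The elav driver is active in neurons and the repo driver in glia, and neither drives a target gene in the controls, which carry only an empty landing site. The RNA comes from whole heads, so it includes brain, eye, fat body, muscle and cuticle of both groups, whatever cell type the labels name. The 2 drivers are separate stocks, and both crosses of a driver, to the control stock and to the RNAi stock, carry its chromosomes. Stock background, rearing, day and hour of collection therefore cannot be told apart from the driver. In such bulk samples, fewer cells of a type and less RNA per cell cannot be told apart either.

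Of 10028 genes tested, 405 were called (4.04%), which required both a 1.5-fold difference and an adjusted p no higher than 0.05. Of these, 221 were higher in elav controls (2.2% of genes tested) and 184 were lower (1.83%). In each of the 405 the 3 libraries of a group lay above all 3 of the other, as they did for 27% of all genes tested. The median log2 difference over all genes was -0.01, and throughout a positive log2 difference means higher in elav controls. The number of calls moved with single libraries. Without repo control 3 there were 357 higher and 448 lower (3.5 and 4.39%, or 7.89% in all), and without repo control 1 there were 112 and 122. Without elav control 1, 2 or 3 the counts were 60 and 44, 61 and 40, and 51 and 41. DESeq2 at the same thresholds called 309 higher (2.78%) and 341 lower (3.07%), or 5.85% in all. In all 6 fits that left out 1 library, 78 genes kept their call, 47 higher and 31 lower.

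Depth in the 6 libraries was 20694850 to 31893782 counts, with 11995 to 12528 genes counted and 12.4 to 19.1% of counts on the 10 most counted genes. Repo control 3 stood apart from its group. Its score on the first principal component, which held 47.9% of the variance, was -45.2, against -15.0 and -14.0 for the other repo controls and 24.0 to 25.5 for the elav controls. Of the 405 calls, 379 were also made without it. The replicates of the elav controls were closer to each other than those of the repo controls, and the chi-square between 2 libraries, averaged over genes, was 7.82 to 33.6 against 174.6 to 277.7. Every value below is in CPM, the usual depth-scaled count, here with TMM factors, as each library or as mean ± SD with n = 3.

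The genes that name the drivers were not called between the groups. The neuronal RNA-binding protein gene elav was at 130 ± 4.47 CPM in elav controls and 112 ± 13.6 in repo controls (log2 difference 0.22, adjusted p 0.315). The lowest elav control, at 126.6 CPM, lay just above the highest repo control, at 125.5. The glial homeobox gene repo was at 52.6 ± 3.75 and 53.6 ± 3.75 CPM (-0.03, adjusted p 0.922). PIG-A, which neither control targets, was at 4.36 ± 0.903 and 5.03 ± 0.0329 CPM (-0.20, adjusted p 0.595). None of 23 neuronal markers, none of 17 glial markers and none of the 3 yolk protein genes was called, against 4.04% of all genes tested. At that share few calls would fall in lists of this size, so their absence does not show equal neuron or glia content. Of the glial markers, 4 had log2 differences above 0 and 13 below. DESeq2 called 1 of them lower (3.07% of all genes), and between the knockdown heads 4 were called lower (2.6%). Of the neuronal markers, 14 were above 0 and 9 below. Together the yolk protein genes, which are female products of the fat body, made up 42952 to 123481 CPM in every control library, while the dosage compensation RNAs of males, lncRNA:roX1 and lncRNA:roX2, were at 2.19 to 5.31 and at most 0.207 CPM. The methods describe male heads and the labels give no sex, so these levels go against the methods for both groups alike.

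Among the largest differences, several genes were near 0 in one set of controls and plainly expressed in the other. Tektin-C (chr3L:5794405-5796543, BDGP6), which encodes a protein of ciliary and sperm-tail microtubules, was at 31.6, 34.8 and 33.6 CPM in elav controls and 1.16, 0.724 and 0.653 in repo controls. The libraries did not overlap, and the log2 difference was 5.27 ± 0.21 (SE, adjusted p 3.9e-05). Achl (chr2R:14420324-14424764) was at 70.2, 69.0 and 65.3 CPM against 4.19, 3.98 and 5.27, a difference of 15.2-fold (log2 3.93 ± 0.135, adjusted p 2.1e-05). CG14329 was at 9.12 to 10.1 CPM against 0.0769 to 0.260 (log2 5.95, adjusted p 0.000287), and CG12256 at 5.36 to 7.63 against 0.269 to 0.404 (4.15, adjusted p 0.000377). CG11052, Kmn1, a kinetochore protein gene whose exons overlap CG11699, and Ugt37A3 had log2 differences of 3.89, 3.58 and 3.53. All 7 of these calls held without any single library.

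Other genes had no count in any repo control library. Unc-115b (chr3R:9687060-9692775), a relative of the actin-binding unc-115 family, was at 0.864, 0.918 and 1.20 CPM in elav controls and was at least 26.9-fold higher there, taking a floor of 3 counts over the 3 repo libraries. Its exons overlap p24-2 and CG18542, and whether reads were counted by strand is not given in the sources used here. On the same floor p24-2 was at least 18.7-fold, the antisense RNA asRNA:CR44291 at least 16.9-fold and the dynein light chain gene Cdlc2 at least 14.7-fold higher. These 4 calls were lost without any elav library, and that of p24-2 also without repo control 1 (adjusted p up to 0.111). For 2 more genes the repo controls held 2 or 3 counts in all. The count ratio was 35.6 for CG14607 (95% counting interval 9.47 to 299.9) and 32.3 for cas, a transcription factor gene of neuroblasts (10.7 to 159.8). CG14607 was no longer called without elav control 2 or 3, and cas without elav control 1 or 3 (adjusted p up to 0.0656).

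**Figure D1:**
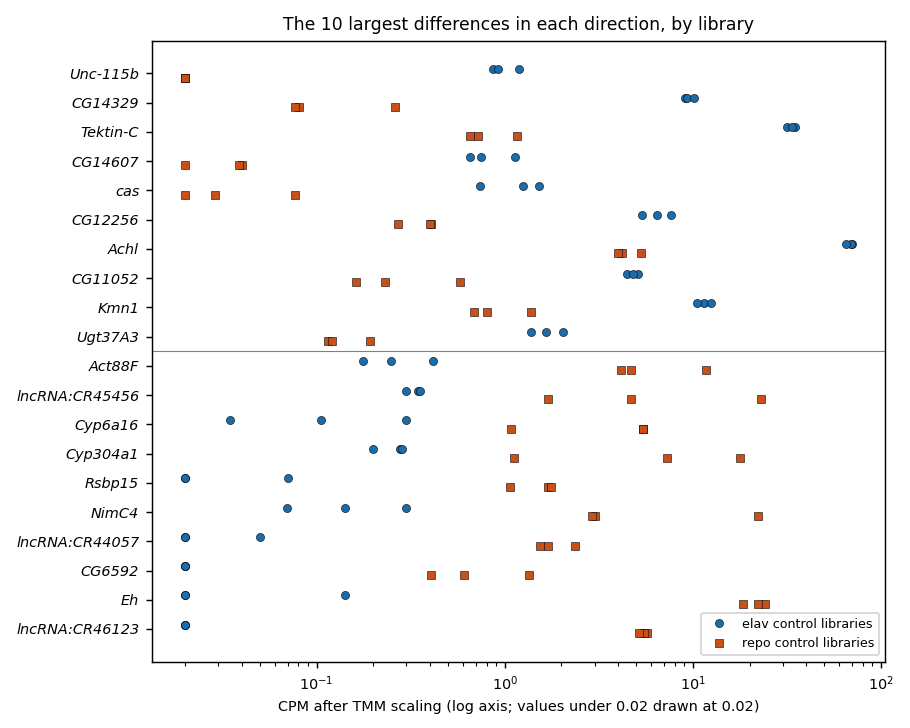
The 10 largest called differences in each direction, with CPM on a log axis and 1 point per library (circles, elav controls; squares, repo controls; values under 0.02 CPM are drawn at 0.02). The genes above the line are higher in elav controls and those below it are lower, with no overlap between the groups, and the repo controls spread widely for NimC4, Cyp304a1 and lncRNA:CR45456.

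In the other direction, lncRNA:CR46123 (chr3R:1366234-1366601) had 0 counts in the 3 elav controls and 469 in the repo controls, at 5.72, 5.47 and 5.19 CPM. It was at least 145-fold lower in elav controls on the same floor. Eh, which encodes eclosion hormone, the neuropeptide that triggers ecdysis, was at 24.3, 18.6 and 22.2 CPM in repo controls, while elav control 2 had 0.141 CPM and the other elav controls none. Its log2 difference was -8.60 ± 0.50 (adjusted p 0.000287). Eh lies at chr3R:17446642-17448858, within 1 Mb of the repo gene. lncRNA:CR44057 had 1 count in elav controls and 158 in repo controls, and Rsbp15 had 2 and 125. The count ratios were 146.5 (95% counting interval 25.9 to 5824) and 58.0 (15.7 to 483.9), and all 4 calls held without any single library.

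In the remaining large decreases the repo controls were uneven. NimC4, which encodes a receptor for the uptake of dying cells, was at 3.03, 2.90 and 22.3 CPM in repo controls and at most 0.299 in elav controls (log2 -5.85, adjusted p 0.0286). The cytochrome P450 gene Cyp304a1 was at 7.25, 17.9 and 1.11 CPM against at most 0.283 (-5.06, adjusted p 0.0333). Cyp6a16 was at 5.43, 5.43 and 1.08 CPM against at most 0.299 (-4.86, adjusted p 0.0194). CG6592 had no counts in elav controls and was at least 19.8-fold lower, and lncRNA:CR45456 was at 4.71, 1.69 and 23.1 CPM against 0.299 to 0.353. These 5 calls were lost without any elav library, and all but NimC4 also without repo control 1 (adjusted p up to 0.185). CG6592 was further lost without repo control 2. Exons of CG6592 overlap CG10472, those of Rsbp15 overlap CG17404 and those of lncRNA:CR44057 overlap lncRNA:CR45791.

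Several circadian clock genes differed between the control heads. In the fly clock, Clk and cyc encode the activators that bind E-boxes of per, tim, vri, Pdp1 and cwo. Transcripts of these targets peak around dusk, while Clk and cry transcripts peak in the opposite phase. PER and TIM then inhibit their own activators. Of these 5 targets, 4 were called lower in elav controls and none higher, against 1.83% of all genes called lower. The hour at which heads were taken is given neither by the labels nor by the methods.

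The light-degraded partner of PER, tim (chr2L:3493986-3508119), was at 92.3, 100.2 and 97.1 CPM in elav controls and at 618, 507 and 518 CPM in repo controls. The groups did not overlap, and tim was 5.68-fold lower in elav controls (log2 -2.50 ± 0.13, adjusted p 0.000188). The repressor gene per (chrX:2685580-2692780), whose exons overlap dyw, was at 46.7, 53.6 and 53.4 CPM against 155, 128 and 155 (log2 -1.51 ± 0.12, adjusted p 0.00093). Both calls held without any single library. The Clk repressor gene vri was at 83.5, 101.1 and 95.9 CPM against 234, 207 and 167 (-1.12, adjusted p 0.00836). The Clk activator gene Pdp1 was at 331, 254 and 305 CPM against 474, 444 and 458 (-0.63, adjusted p 0.0461). The call of vri was lost without any elav library (adjusted p up to 0.0577), and that of Pdp1 also without repo control 1 (up to 0.209). The fifth target, the repressor gene cwo, was at 73.9 to 83.8 against 101.5 to 112 CPM (-0.46, adjusted p 0.0357), below the 1.5-fold threshold.

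Clk (chr3L:7763233-7775603) moved the other way. It was at 59.8, 61.9 and 60.1 CPM in elav controls and at 31.0, 27.6 and 30.1 in repo controls, 2.05-fold higher (log2 1.03 ± 0.09, adjusted p 0.00158), in every leave-one-out fit. The blue-light receptor gene cry, of the same phase, was at 298, 302 and 315 against 256, 269 and 297 CPM (0.15, adjusted p 0.493), and its exons overlap vib and lncRNA:CR46393. Its lowest elav control lay just above its highest repo control, and it was not called. Slob, a potassium channel regulator with a daily rhythm, was at 375, 379 and 384 CPM against 696, 594 and 537 (-0.68, adjusted p 0.0388). That call was lost without any elav library or repo control 1 (adjusted p up to 0.202).

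The rest of the clock list did not pass the test. The Clk partner gene cyc was at 34.2, 36.0 and 39.8 CPM against 35.9, 31.6 and 28.0 (0.20, adjusted p 0.404). The kinases and the F-box proteins that act on PER and TIM (dco, the casein kinase 1 gene also called doubletime, CkIIalpha, CkIIbeta, sgg, nmo, slmb and jet) had log2 differences of -0.03 to 0.20 and adjusted p of 0.485 to 0.933. The clock neuropeptide gene Pdf was at 46.6, 49.1 and 49.4 CPM against 30.1, 33.1 and 38.2 (0.52, adjusted p 0.0447), below the 1.5-fold threshold. Its receptor gene Pdfr and the clock-controlled gene to had adjusted p of 0.0916 and 0.0863. Of the 19 clock genes, 1 was called higher and 5 lower, against 2.2 and 1.83% of all genes.

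**Figure D2:**
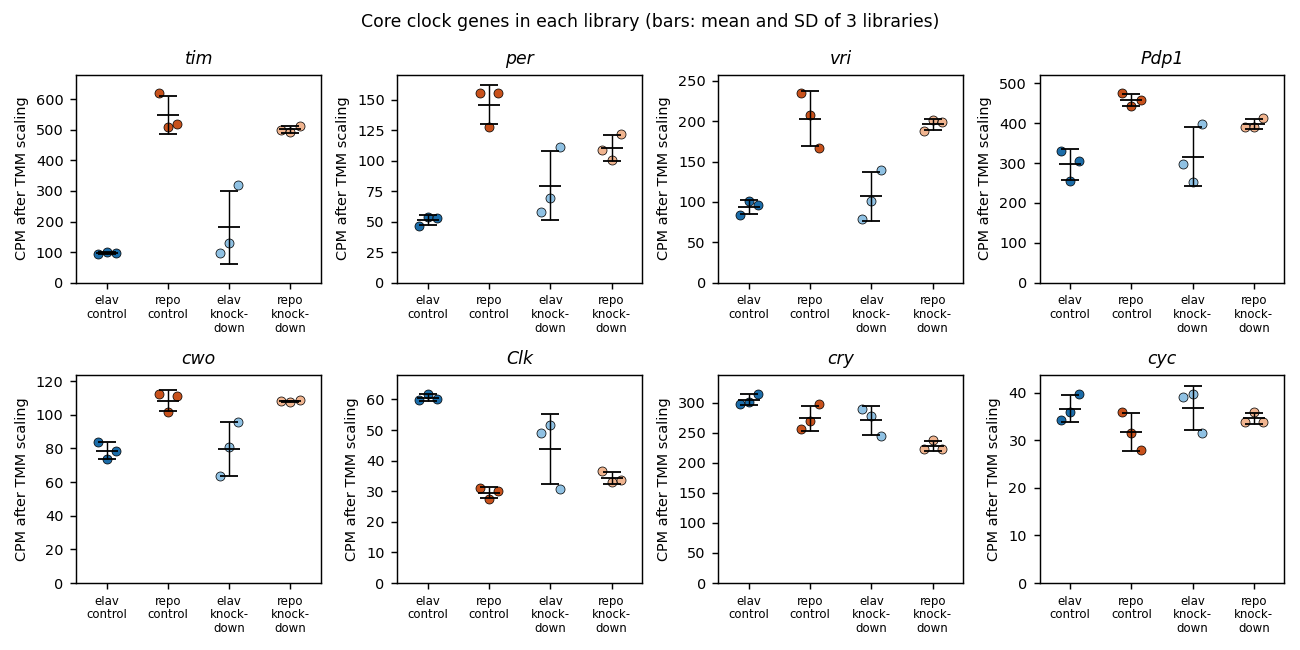
CPM of 8 clock genes in each of the 12 libraries, with the mean and SD of each group of 3; control and knockdown libraries were scaled separately. The elav controls lie below the repo controls for tim, per, vri, Pdp1 and cwo and above them for Clk, and elav knockdown 3, at 318 CPM of tim, lies apart from elav knockdown 1 and 2.

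Between the knockdown heads tim, per, vri, Pdp1, cwo, Slob and Clk had the same signs as between the control heads, and only vri was called. There tim was at 95.8, 131 and 318 CPM under elav and at 498, 491 and 514 under repo (log2 -1.46, adjusted p 0.0796). For per the log2 difference was -0.47 (adjusted p 0.231), for Clk 0.35 (0.266), and vri was called at -0.87 (0.0459). Slob had -0.55 (0.0362), below the 1.5-fold threshold. The difference of the driver contrast between control and knockdown heads was not called for any of the 19 clock genes. For tim that difference was -1.05 (adjusted p 0.228).

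For w and Rh6, genes with functions in the eye, the differences were also present between the knockdown heads. Whether they arise in the eye was not tested, as the libraries are of whole heads. The ABC transporter gene w (chrX:2790599-2796466), which imports pigment precursors, was at 26.1, 24.2 and 24.7 CPM in elav controls and at 114, 113 and 161 in repo controls. It was 5.18-fold lower in elav controls (log2 -2.37 ± 0.16, adjusted p 0.000468) in every leave-one-out fit, and the log2 difference between the knockdown heads was -2.29 (adjusted p 0.00128). Copies of w mark many fly transgenes, and reads from such a copy are counted on w as well. Rh6, the green-sensitive rhodopsin of R8 photoreceptors, was at 248, 305 and 281 CPM against 625, 561 and 444 (-0.97, adjusted p 0.0195). Its call was lost without any elav library or repo control 1 (adjusted p up to 0.132). Between the knockdown heads it was -0.98 (adjusted p 0.00753). The other 19 photoreceptor genes and 12 of 13 eye pigment genes tested were not called, so each list had 1 gene lower, against 1.83% of all genes. Every elav library lay above every repo library for 5 photoreceptor genes and below for 5, against 14 and 13% of all genes. DESeq2 called 2 photoreceptor genes lower (3.07% of all genes), and edgeR without repo control 3 also called 2 lower (4.39%). Neither called any higher. The marker genes v and y had log2 differences of 0.22 and -0.38, with adjusted p of 0.753 and 0.57. Between the knockdown heads y was called higher under elav (1.07, adjusted p 0.0267) and v was not called (-0.17, adjusted p 0.77).

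Antimicrobial peptide genes varied widely among the repo controls. The antifungal peptide gene Drs, a target of the Toll pathway, was at 9.502, 7.91 and 8.17 CPM in elav controls and 48.9, 29.0 and 49.5 in repo controls. It was 4.98-fold lower in elav controls (log2 -2.31 ± 0.22, adjusted p 0.00224), held without any single library, and was the only one of 13 antimicrobial peptide genes tested to be called. Over all genes 1.83% were called lower. Of the 13, 12 had a log2 difference below 0 and 1 above, with a median of -1.99, against -0.01 over all genes. Only 3 had every elav library below every repo library and 1 had every one above, against 13 and 14% of all genes. DESeq2 called 3 lower and 0 higher, against 3.07 and 2.78% of all genes. The peptide gene Mtk was at 13.9, 9.75 and 38.4 CPM against 164, 78.4 and 2.88, and DptB, a target of the Imd pathway, at 6.95, 3.603 and 15.6 against 101.5, 28.9 and 1.81. In both, repo control 3 was below every elav control while repo controls 1 and 2 were above. The summed CPM of the list was 59.7 to 162 in elav controls and 508, 218 and 101.5 in repo controls. Leaving out repo control 3, 9 of the peptide genes were called lower and 1 higher, against 4.39 and 3.5% of all genes. Def, the defensin gene, ran the other way at 30.6, 22.5 and 37.6 CPM against 4.73, 4.10 and 19.6, and was not called (1.68, adjusted p 0.159).

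Among 15 short secreted Toll peptides, 1 was called lower (1.83% of all genes). This was BomS3, at 289, 202 and 224 CPM against 402, 387 and 388 (-0.72, adjusted p 0.0425), and it lost its call in 5 of 6 leave-one-out fits, all but the fit without repo control 3 (adjusted p up to 0.218). Of 36 genes of recognition and signalling 1 was called higher (2.2% of all genes), and without repo control 3 there were 2 higher and 3 lower (3.5 and 4.39%). In the full set psh, the protease that senses microbial proteases upstream of Toll, was called higher at 82.4, 78.0 and 88.5 CPM against 37.6, 55.6 and 47.7 (0.82, adjusted p 0.0234). It was lost without any elav library (adjusted p up to 0.126). The stress-induced Turandot gene TotX was at 11.2, 12.8 and 8.37 CPM against 1.79, 2.01 and 2.65 (2.33, adjusted p 0.00241), in every leave-one-out fit. Of 8 Turandot and JAK-STAT genes tested, TotX was the only one called (2.2% of all genes higher), and 5 had log2 differences below 0. Between the knockdown heads, BomS3, psh and TotX had log2 differences of -0.10, 0.18 and 1.30, and Drs an adjusted p of 0.138, with none of the 4 called.

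Of 12 heat-shock genes tested, 2 were lower in elav controls and none higher, against 1.83 and 2.2% of all genes, and without repo control 3 there were 4 lower (4.39%). Hsp70Ab was at 0.0691, 0.283 and 0.249 CPM against 2.57, 1.61 and 2.73 (-3.53, adjusted p 0.00884), and -2.86 between the knockdown heads (adjusted p 0.00994). Its near-identical copies can share reads, and its exons overlap CG3281. Hsp68 was at 12.4, 9.11 and 10.3 CPM against 26.0, 30.2 and 19.7 (-1.25, adjusted p 0.0129), with -0.06 between the knockdown heads, and its exons overlap CG6000. The call of Hsp70Ab was lost without elav control 3 (adjusted p 0.0536), and that of Hsp68 without elav control 2 or 3 or repo control 1 (up to 0.0784).

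**Figure D3:**
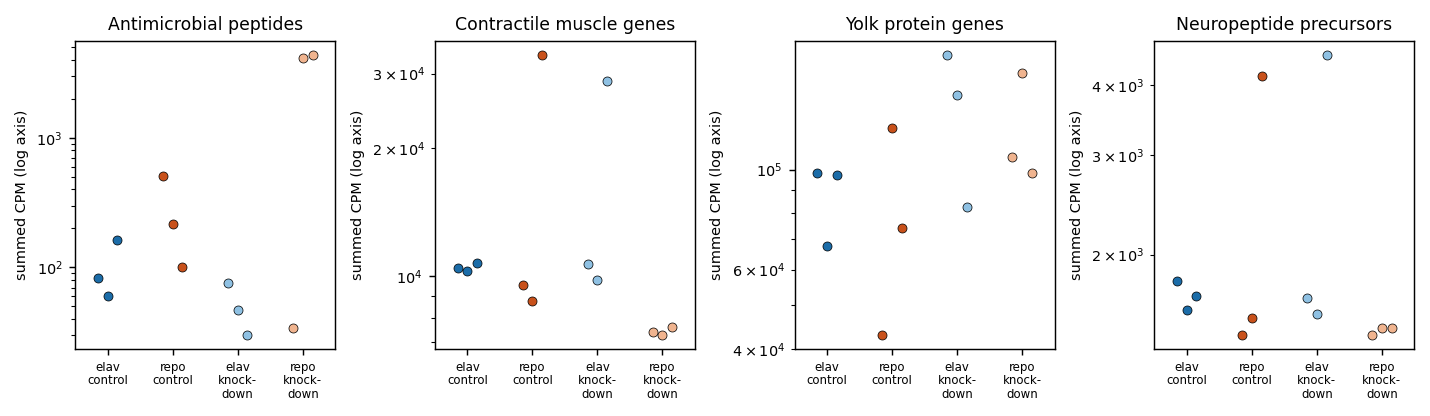
Summed CPM of 4 gene lists in each of the 12 libraries, on log axes, with 1 point per library; control and knockdown libraries were scaled separately. Antimicrobial peptides spread from 101.5 to 508 CPM over the repo controls and reach 4162 and 4385 CPM in repo knockdown 2 and 3, while contractile muscle genes and neuropeptide precursors are high in repo control 3 and elav knockdown 3.

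Genes for making ribosomes were higher in elav controls. This group builds the subunits in the nucleolus: box C/D and H/ACA particles guide the chemical marking of ribosomal RNA, and further factors cut and fold the precursor. Of 23 genes tested, 15 were called higher and none lower, against 2.2% of all genes called higher. All 23 had a log2 difference above 0, 21 had elav libraries wholly above the repo libraries (14% of all genes tested), and the median was 0.79. Without repo control 3 the median was 0.68 with 16 called. Without elav control 1, 2 or 3 the calls fell to 6, 6 and 7, and without repo control 1 to 9. The 8 genes not called were Nlp, Surf6, wcd, nclb, CG4364, Non1, Tsr1 and CG1785, with log2 differences of 0.28 to 0.69.

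The C/D particle protein gene nop5 was at 85.4, 79.7 and 89.1 CPM in elav controls and at 20.2, 28.4 and 21.4 in repo controls, 3.63-fold higher (log2 1.86 ± 0.15, adjusted p 0.00107). The ribosomal RNA methyltransferase gene Fib was at 50.7, 44.8 and 53.1 CPM against 14.2, 18.9 and 15.3 (1.62 ± 0.14, adjusted p 0.00147). The pseudouridine synthase gene Nop60B, which overlaps several snoRNA genes, was at 84.5, 78.0 and 80.8 CPM against 24.2, 33.2 and 25.9 (1.55, adjusted p 0.00156). NHP2, of the H/ACA particle, was at 28.9, 25.0 and 30.2 CPM against 10.4, 14.4 and 11.5 (1.21, adjusted p 0.00623). These 4 calls held without any single library. Other called members included Nop56 (1.19, adjusted p 0.0116), mbm (1.18, 0.00884), Nopp140 (0.87, 0.00423) and the helicase gene pit (0.75, 0.00884).

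**Figure D4:**
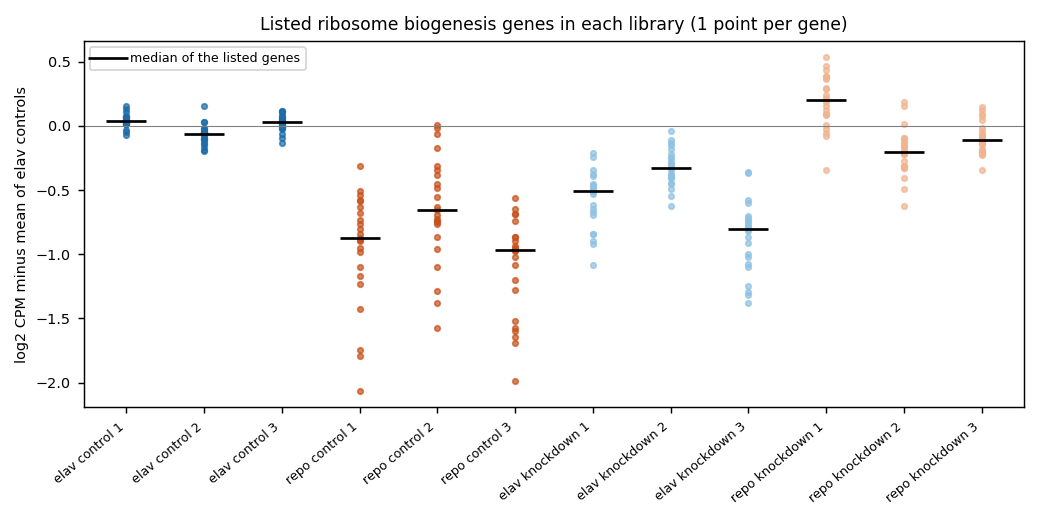
Log2 CPM of the 23 listed ribosome biogenesis genes in each of the 12 libraries, relative to the mean of the elav controls, with 1 point per gene and a bar at the median; control and knockdown libraries were scaled separately. The medians of the repo controls lie below those of the elav controls, whereas the medians of the elav knockdown libraries lie below those of the repo knockdown libraries.

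Between the knockdown heads the log2 difference of these genes was below 0 for all but CG4364. There the median log2 difference was -0.54, none of the 23 was called higher and 1 was called lower, l(3)72Dn (-0.65). For nop5 the levels were 44.6, 65.3 and 32.5 CPM under elav and 110, 72.7 and 76.8 under repo (-0.87, adjusted p 0.0982). The difference of the driver contrast between control and knockdown heads was called for 18 of the 23. The share was 3.01% over all genes and 30.6% over the genes called between the control heads. That test contains the control difference, by which most of the listed genes were already called, so their share is no separate evidence. It was 2.72 for nop5 (adjusted p 0.00438), 2.29 for Fib (0.00615), 2.47 for Nop60B (0.00419) and 1.64 for NHP2 (0.00734), on the log2 scale. The cytoplasmic ribosomal protein genes, which encode the finished subunits' proteins, had log2 differences above 0 in 75 of 75 tested, with a median of 0.38 and none called. Without repo control 3 their median was 0.17, and their summed CPM was 83248 to 92874 in elav controls and 63722, 88621 and 46809 in repo controls.

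Of 14 genes of insulin signalling and fasting tested, 2 were called higher in elav controls and none lower, against 2.2 and 1.83% of all genes. ImpL2 (chr3L:4224006-4236147), a secreted binding protein that holds back insulin-like peptides, was at 146, 99.4 and 133 CPM in elav controls and at 33.2, 39.0 and 42.0 in repo controls. It was 3.32-fold higher (log2 1.73 ± 0.17, adjusted p 0.00224) in every leave-one-out fit, and its exons overlap CG46460. The transcription factor gene foxo, which insulin signalling restrains, was at 142, 135 and 142 CPM against 81.8, 105 and 83.2 (0.63, adjusted p 0.0261). Its call held only without repo control 2 among the leave-one-out fits (adjusted p up to 0.148). The other 12 genes tested, among them Ilp2, Ilp3, Ilp5, InR and the translation repressor gene Thor, were not called, with log2 differences of -1.33 to 0.49. Between the knockdown heads ImpL2 was at 53.3, 76.9 and 22.6 CPM under elav and 108, 109 and 110 under repo (-1.10, adjusted p 0.122), and foxo differed by -0.04. The change of the driver contrast was 2.82 for ImpL2 (adjusted p 0.0085) and 0.66 for foxo (0.0372).

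Detoxification genes differed in both directions. Cytochrome P450 enzymes oxidise hormones and foreign compounds, and of 76 genes tested 5 were called higher and 11 lower in elav controls, against 2.2 and 1.83% of all genes. Cyp6a23 was at 71.0, 76.3 and 74.3 CPM against 19.98, 20.8 and 18.3 (log2 1.91 ± 0.10, adjusted p 0.000163), and 1.72 between the knockdown heads (adjusted p 0.00129). Its neighbour on 2R, Cyp6a17, ran the other way at 58.0, 58.1 and 57.3 CPM against 132, 142 and 115 (-1.16, adjusted p 0.00156), and -1.01 between the knockdown heads. Cyp309a1 was at 2.97, 3.89 and 4.93 CPM against 17.6, 12.8 and 16.8 (-2.01, adjusted p 0.00343). The calls of Cyp6a23 and Cyp309a1 held without any single library. Without repo control 3 the P450 counts were 8 and 19, without repo control 1 the count lower was 4, and without any elav library it was 3.

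Glutathione transferases and UDP-glycosyltransferases, which attach glutathione or sugars to such compounds, also had calls in both directions. Of 30 glutathione transferase genes, 1 was called higher and 4 lower, against 2.2 and 1.83% of all genes, so that the share higher was near that of all genes. GstE6 was at 55.7, 55.2 and 54.5 CPM against 105, 120 and 88.4 (-0.92, adjusted p 0.00862), with GstE7 (-0.85), GstZ1 (-0.71) and GstD3 (0.84) also called. All 4 of these calls were lost without any elav library (adjusted p up to 0.202), those of GstE7, GstZ1 and GstD3 also without repo control 1, and that of GstZ1 without repo control 2. Of 20 UDP-glycosyltransferases, 3 were called higher and 2 lower (2.2 and 1.83% of all genes), and without repo control 3 the counts were 5 and 3 (3.5 and 4.39%). Ugt35B1 was at 1.97, 2.19 and 1.49 CPM against 18.7, 21.1 and 54.1 (-4.04, adjusted p 0.00466), in every leave-one-out fit. The gene beside it on 3R, Ugt35E2, was at 8.95, 9.61 and 7.42 CPM against 1.39, 1.25 and 3.15 (2.17, adjusted p 0.0157). Ugt35C1 was lower (-1.30, adjusted p 0.0138). Without any elav library or repo control 1 Ugt35E2 was not called, and without elav control 1 or 2 Ugt35C1 was not called (adjusted p up to 0.0892).

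Odorant-binding proteins carry odours and other small molecules in the fluid of sensilla. Of 26 tested, 2 were called higher and 4 lower in elav controls, against 2.2 and 1.83% of all genes. Obp99d was at 0.449, 0.495 and 0.398 CPM against 5.11, 2.37 and 3.84 (-3.06, adjusted p 0.00473) and -3.85 between the knockdown heads (adjusted p 0.0178). Obp56h was at 24.7, 19.2 and 24.5 CPM against 7.94, 7.92 and 7.07 (1.58, adjusted p 0.00153) and 2.74 between the knockdown heads (adjusted p 0.0261). Both held without any single library. Obp99b was at 7.71, 4.88 and 12.0 CPM against 27.1, 27.8 and 35.1 (-1.88, adjusted p 0.015), but 1.36 between the knockdown heads, a change of the driver contrast of -3.25 (adjusted p 0.0233). Its call was lost without elav control 1 (adjusted p 0.0928). Obp56a was higher (2.18-fold, adjusted p 0.0194), a call lost without any elav library or repo control 2 (up to 0.0966). Of 35 chemoreceptor genes tested 1 was higher and 2 were lower, against 2.2 and 1.83% of all genes, and without repo control 3 the counts were 3 and 2. Here too 1 gene alone exceeds either share. Or63a was higher (0.65). Ir76a, at 4.68 to 5.65 CPM against 8.72 to 11.3, and the pheromone receptor gene Gr32a (-1.16) were lower. These 3 calls were lost without any elav library or repo control 1, and that of Or63a also without repo control 2 (up to 0.215).

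Of 29 neuropeptide precursor genes tested, 1 was called higher and 2 lower, Eh among the latter, against 2.2 and 1.83% of all genes. In a list of this size 1 gene alone exceeds either share. With repo control 3 left out, 4 were called higher and 2 lower, against 3.5 and 4.39%. CNMa was at 33.4, 15.1 and 18.4 CPM against 3.90, 7.04 and 2.19 (2.35, adjusted p 0.0286), and CCHa2, a gut and fat body peptide that acts on insulin-producing cells, at 90.9, 52.8 and 71.3 against 147, 226 and 121 (2.30-fold lower, adjusted p 0.0498). The call of CNMa was lost without any elav library or repo control 1 (adjusted p up to 0.11). The call of CCHa2 held only without repo control 3 (up to 0.201). Ddc, the dopa decarboxylase of dopamine synthesis and cuticle hardening, was at 307, 332 and 328 CPM against 203, 172 and 201 (0.75, adjusted p 0.0147) and 0.69 between the knockdown heads. It was lost without any elav library (up to 0.101). Of 6 body pigment genes tested, Ddc was the only one called (2.2% of all genes higher), and 4 had log2 differences below 0. Cyp4d21, a P450 gene with male-biased head expression, was lower (-1.86, adjusted p 0.0203, and -1.98 between the knockdown heads), a call lost without any elav library or repo control 1 (up to 0.113). Of 9 genes of sex determination and male traits tested, it was the only one called (1.83% of all genes lower). In that list 7 genes had log2 differences above 0 and 2 below.

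Markers of muscle and cuticle moved with repo control 3. The summed CPM of the muscle list, which includes Mhc, the muscle myosin, was 10306 to 10742 in elav controls and 9552, 8746 and 33208 in repo controls. The cuticle list summed to 632 to 666 and to 748, 715 and 1608 CPM. The median log2 difference was -0.76 over 25 muscle genes and -0.69 over 37 cuticle genes tested, and without repo control 3 it was 0.09 and 0.01. Nplp3, a precursor gene in the neuropeptide list, was at 185, 205 and 2953 CPM in repo controls and at 345 to 417 in elav controls. Of the muscle genes, 2 were called lower (1.83% of all genes), and without repo control 3 there were 2 higher and 2 lower. The flight muscle actin gene Act88F was at 0.415, 0.177 and 0.249 CPM against 4.16, 4.71 and 11.8 (-4.58, adjusted p 0.00589), a call lost without elav control 2 (adjusted p 0.0504). TpnC4, a flight muscle troponin C gene, had no counts in elav controls and was at least 14.5-fold lower, a call lost without any elav library or repo control 1 (up to 0.0838).

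The cuticle protein genes Cpr51A (-1.47, adjusted p 0.0139) and Cpr72Ec (-0.69, adjusted p 0.0182) were called lower, 2 of 37 against 1.83% of all genes, and without repo control 3 there were 2 higher and 4 lower. Cpr51A was -1.35 between the knockdown heads (adjusted p 0.0199), whereas Cpr72Ec was 1.23 there, a change of the driver contrast of -1.93 (adjusted p 0.0331). Both calls were lost without elav control 2 or 3 or repo control 1, and Cpr72Ec also without elav control 1 (adjusted p up to 0.126). All 15 glycolysis genes had log2 differences below 0, none was called, and the median was -0.49, or -0.26 without repo control 3. In 9 of them every elav control lay below every repo control, against 13% of all genes. DESeq2 on all 6 libraries called 4 lower (3.07% of all genes), and edgeR without repo control 3 called 1 lower (4.39%). Ald1, an aldolase of glycolysis, was at 1478, 1251 and 1456 CPM against 1518, 1639 and 2450 (-0.42, adjusted p 0.348). No gene was called among 9 fat body genes, 11 hemocyte genes, 7 midgut genes or 11 methuselah-like receptors tested. When repo control 3 was left out, 1 fat body gene was called higher and 4 lower, 1 hemocyte gene higher and 1 lower, and 1 methuselah-like receptor lower, against 3.5 and 4.39% of all genes. DESeq2 on all 6 libraries called 2 fat body genes higher and 2 lower, 1 hemocyte gene each way and 1 midgut gene higher. The hemocyte gene Hml was at 485, 697 and 451 CPM against 253, 166 and 315 (1.15, adjusted p 0.0549). Col4a1, of the same list, ran the other way at 289.6, 370.4 and 299.8 CPM against 504.4, 423.5 and 943.5 (-0.96, adjusted p 0.129). Of the 11 hemocyte genes, 4 had log2 differences above 0 and 7 below.

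The 6 knockdown libraries compared the drivers on separate heads that also differ in whether neurons or glia carry the knockdown. There 442 of 9940 genes were called (4.45%), 184 higher under elav (1.85%) and 258 lower (2.6%). Of the 405 genes called between the control heads, 397 were tested there. Of these 248 had the same sign, 94 were called the same way (23.7%) and 12 were called the opposite way, all 12 among genes higher in elav controls. The 94 genes were 21.3% of the calls between the knockdown heads. By direction, 102 of 216 genes higher in elav controls and 146 of 181 lower had the same sign. Called the same way were 45 of the 216 (20.8%) and 49 of the 181 (27.1%). The share rose with the size of the difference between the controls, from 63 of 206 genes with a log2 difference of at least 1 to 35 of 75 with at least 2 and 23 of 37 with at least 3. Without repo knockdown 1, 2 or 3 the shared calls were 44, 41 and 61. A fit that left out an elav knockdown library gave the highest number, above 94, and the full range is given with the processing alternatives. Elav knockdown 3 stood apart from its group. Its chi-square, averaged over genes, was 249.2 and 223.6 against elav knockdown 1 and 2, and 63.1 between elav knockdown 1 and 2.

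Genes called the same way in both sets of heads included Tektin-C (5.27 and 5.77), w, Kmn1 (3.58 and 2.78) and CG11052 (3.89 and 4.15). The mitochondrial transcription termination factor gene mTerf3 and the sleep-related potassium channel gene sand were picked after their values were seen. The former was at 101.4, 106.6 and 96.0 CPM in elav controls and at 12.2, 12.1 and 11.4 in repo controls (log2 3.09 ± 0.10, adjusted p 2.1e-05; 2.68 between the knockdown heads). The latter, whose exons overlap uno, was at 6.29, 6.005 and 6.77 CPM against 31.3, 29.3 and 30.8 (-2.26 ± 0.10, adjusted p 9.49e-05; -2.08 between the knockdown heads). lncRNA:CR46123 had no counts in the elav knockdown heads either, and was at 5.80, 3.97 and 3.40 CPM in the repo knockdown heads. Eh was at 0, 1.31 and 4.61 CPM in the elav knockdown heads and 18.7 to 25.4 in the repo knockdown heads (-3.51, adjusted p 0.0653).

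**Figure D5:**
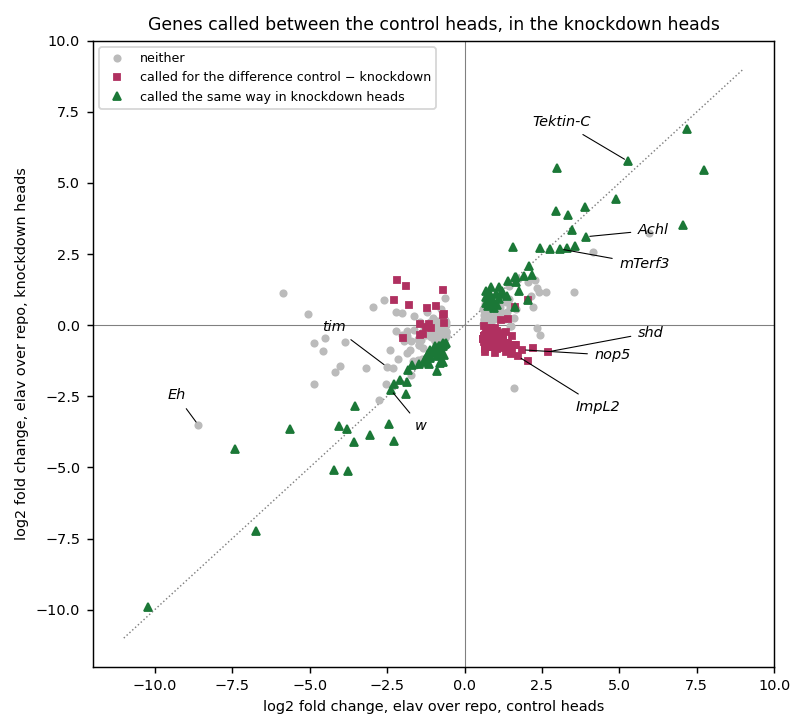
Log2 fold change of elav over repo in control heads (x) and in knockdown heads (y) for the 397 genes called between control heads and tested in both. Triangles mark the 94 genes called the same way in knockdown heads, squares genes called for the difference of the 2 contrasts but not called the same way, and the dotted line equal values; fitted values of genes with no count in a group depend on the prior count and are no measure of size.

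A change of the driver contrast between control and knockdown heads was called for 309 of 10257 genes (3.01%), 245 above 0 (2.39%) and 64 below (0.624%). Among the 405 control calls it was called for 124 (30.6%), of which 106 were higher in elav controls and 18 lower, and 115 remained called without repo control 3 and elav knockdown 3. That test contains the control difference by which these genes were called, so its direction among them is no separate evidence. Of the 124, 114 had the opposite sign between the knockdown heads. Besides the ribosome biogenesis genes and ImpL2, they included shd, the enzyme that makes active ecdysone, picked after its values were seen. It was at 27.9, 22.2 and 25.8 CPM against 2.40, 6.28 and 3.27 (2.68, adjusted p 0.00609) and -0.94 between the knockdown heads. The call of shd held without any single control library.

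Calls were spread over the chromosome arms. They made up 2.96% of genes tested on X, 4.38% on 2L, 4.31% on 2R, 3.88% on 3L, 4.38% on 3R and 3.26% on the small chromosome 4. Within 1 Mb of the elav gene 1 of 118 genes tested was called (0.847%), and within 1 Mb of repo 4 of 163 (2.45%), namely Eh, CG14329, Polr1E and CG7675. The insertion sites of the driver transgenes are not given in the sources used here. Among windows of 1 Mb with at least 20 genes tested, the highest share was 4 of 35 (11.4%) at 5 to 6 Mb of 2R. The window at 14 to 15 Mb of 2R had 11 of 107 (10.3%) and holds Achl, Cpr51A and the cluster of Cyp6a17, Cyp6a23, Cyp6a20 and Cyp6a8. Of these 4 neighbouring P450 genes, Cyp6a23 and Cyp6a20 were higher (1.91 and 0.68) and Cyp6a17 lower (-1.16), as was Cyp6a8, at 3.09 to 4.29 CPM against 7.40 to 9.92. A measure of neighbouring calls was added after the values were seen. Of 400 called genes with a position, 83 (20.8%) had another called gene within 10 kb, against 1435 of 9541 (15%) of the genes not called. In 66 of the 83 at least 1 such neighbour differed in the same direction, as did Cyp309a1 and Cyp309a2, GstE6 and GstE7, and Obp99d and Obp99b. No expected share was computed for that count. Some neighbours, such as Unc-115b and p24-2 or CG11699 and Kmn1, have overlapping exons and may share reads, which can raise both counts.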

How the data were processed

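RNA of whole heads was sequenced by the authors, who trimmed reads with seqtk, aligned them to release 6 of the fly genome (dm6) with Bowtie2 and deposited raw counts per FlyBase gene for 12 libraries. The counting tool and its use of strand are not given in the sources used here. The authors also deposited tables of their own knockdown comparisons with fold changes and p-values, which were not used. Of 17737 gene identifiers, 17599 were given symbols and positions (Ensembl annotation of BDGP6).

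The 3 elav and 3 repo control libraries were compared on the deposited counts with the two-sided quasi-likelihood F test of edgeR 4.0.16 (R 4.3.3), after TMM scaling and the default filter on low counts, with Benjamini-Hochberg adjustment over all genes tested. Calls required a 1.5-fold difference and an adjusted p no higher than 0.05. The knockdown libraries were fitted in the same way, and the difference of the contrasts as an interaction over 12 libraries. Tables and figures were made with Python 3.11.15, pandas 2.3.3 and matplotlib 3.10.9. Alternatives were DESeq2 1.42.0, other scalings, no filter, 12 libraries, a replicate block and leaving out each library. CPM was scaled within the 6 control and within the 6 knockdown libraries. Counting intervals are exact at 95% and, like the floor of 3 counts, cover counting error only. The fit was tested on simulated data. The labels number the libraries as biological replicates without saying what separates them, so p-values measure the spread between these libraries.

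Genes were named by rule: PIG-A, elav, repo, w, v, y and the clock list; the 10 largest called differences in each direction with a mean of at least 10 counts and groups that do not overlap; the 5 most expressed called genes in each direction with under 3 counts in the other group; and up to 4 called members of each gene list, or 2 members where none was called. Other members are given as counts or examples of their list, and genes outside it are marked as picked after their values were seen. The comparison, the members and the lists were chosen with earlier results of these data known. Replicate numbers did not pair the libraries: deviations of same-numbered elav and repo controls correlated at -0.158, -0.06 and -0.039.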

Additional observations from a re-analysis of the deposited data

Results flagged for a closer look

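For 9 of the named genes the difference between the drivers itself differed between control and knockdown heads in edgeR's interaction test over 12 libraries, on the log2 scale as control minus knockdown. The value was 2.72 for nop5, 2.47 for Nop60B, 2.29 for Fib and 1.64 for NHP2, all ribosome biogenesis genes. It was 2.82 for ImpL2 and 0.66 for foxo, genes of insulin signalling. It was -3.25 for Obp99b, -1.93 for the cuticle protein gene Cpr72Ec and -1.19 for Hsp68. All 9 were called between the control heads and not between the knockdown heads. In these genes the groups of control heads did not overlap, as in every gene called there. The test contains the control difference by which the genes were called, so neither point is separate evidence. These values equally measure the glial minus the neuronal knockdown effect.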

How the results depend on the processing

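No named gene reversed its direction under any alternative. Of 105 named genes, DESeq2 added 3 calls and lost none, the RLE scaling changed none, and the replicate block lost 21. Leaving out a control library gave 51 to 357 calls higher and 40 to 448 lower in elav controls. The range was 2 to 4 for the clock targets, 6 to 21 for ribosome biogenesis, 3 to 19 for P450 genes lower, 0 to 5 for glutathione transferases lower and 1 to 5 for odorant-binding proteins lower. DESeq2 called 309 higher and 341 lower, and it called 220 of the 221 and all 184 of the edgeR calls. With the replicate block there were 111 higher, 94 lower, 6 P450 genes lower and 1 glutathione transferase lower. The library numbers do not pair the controls. Between the knockdown heads DESeq2 called 382 and 410, the replicate block 54 and 82 with 51 control calls shared, and leaving out a knockdown library gave 37 to 245 higher, 45 to 313 lower and 41 to 129 shared. Without repo control 3 and elav knockdown 3, an alternative added after the values were seen, the change of the driver contrast was called for 340 genes. On 2R, DESeq2 called 6.81% of genes. At these depths 3 counts in a control library equal 0.0941 to 0.145 CPM.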
